A study of Homo sapiens with 4 samples.

Results

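Claudins and their partners form the tight junction, the belt of contacts that seals the space between epithelial cells. The members described here are 10 genes, chosen by symbol: the claudins CLDN1, CLDN2, CLDN3, CLDN4, CLDN7, CLDN12 and CLDN15, and the junction genes OCLN, TJP1 and F11R. Each symbol matched 1 of the 60658 Ensembl gene identifiers in the expression tables, and all 10 had a mean FPKM of at least 1 over the 4 libraries, as 14803 genes did. FPKM is the number of sequenced fragments per length of gene, scaled to the size of the library, so levels can be set side by side between genes.

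The study knocked down TMEM161A, a gene for a transmembrane protein, in HT29 and LIM1215, established cell lines from human colorectal cancers. Cells of each line received a negative control siRNA (labelled NC) or a TMEM161A siRNA (labelled si2), a short RNA duplex that directs the destruction of a matching mRNA. The labels give 1 library for each of these 4 groups, 1 siRNA sequence name, and no time point or dose. With no replicate library, no comparison within a line or between the lines has a p-value, and each interval below is a 95% interval that covers the counting of fragments only, not the variation between cultures.

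The labels were checked first. TMEM161A stood at an FPKM of 42.6 in HT29 NC and 4.64 in HT29 si2, or 10.9% of control, and at 39.1 in LIM1215 NC and 7.61 in LIM1215 si2, or 19.4% of control. The epithelial genes EPCAM, CDH1, KRT8, KRT18 and KRT19 were present in all 4 libraries, with a summed FPKM of 3131 and 3579 in the HT29 and 7406 and 9073 in the LIM1215 libraries. Of 5 intestinal genes, 4 were at or near 0 in both libraries labelled HT29: CDX1 was listed at 0, and VIL1, CDH17 and GPA33 had an FPKM of at most 0.243. The same genes lay between 88.4 and 261 in the LIM1215 libraries. CDX2 was the exception, at 8.29 and 8.04. The labels give colon as the tissue of all samples, and HT29 derives from a colorectal cancer, so these values go against that label. The identity of the line was not tested, and every comparison of the lines rests on it; HT29 below means the libraries so labelled. Markers of other cells were low: the endothelial list summed to at most 0.601 in any library, PTPRC and CD3E were listed at 0 in all, and fibroblast genes apart from COL1A1 (4.83 to 17.6) were at most 0.993. CD68, a lysosomal protein used as a macrophage marker, had an FPKM of 6.22 and 9.82 in HT29 and 58.1 and 72.2 in LIM1215.

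As background, claudins cross the membrane several times, and their outer loops meet those of a neighbouring cell. Sealing claudins narrow the passage for ions and solutes, while pore-forming claudins open selective channels in it. CLDN2 and CLDN15 form channels for small cations, and CLDN2 also lets water pass. CLDN1, CLDN3, CLDN4 and CLDN7 are grouped here as sealing claudins, although the action of CLDN4 and CLDN7 depends on which other claudins a cell makes. CLDN12 has no settled place in this division and is described on its own. OCLN (occludin) is a membrane protein of the junction strand, TJP1 (ZO-1) is the scaffold that ties claudins to actin, and F11R (JAM-A) is an immunoglobulin-like adhesion protein.

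Promoter windows were read first for the 4 claudins past 2-fold between the lines. Their CG counts were not alike, and neither were those of the other members. RefSeq starts (GRCh38.p14) were found for 9 of the 10 members, 15 starts in all, and F11R had none in the table. In the 250 bases before its start, CLDN1 held 28 CG dinucleotides and CLDN3 held 19. CLDN7 held 9 before its upstream start and 25 before its downstream start. CLDN2 held 0 before its upstream start and 1 before its downstream start. Among the other members, CLDN4 held 4, CLDN15 12 and CLDN12 12, OCLN held 24 and 20, and TJP1 held 26, 27, 19 and 2. A link of these counts to the claudin groups or the lines was not tested. Of 35116 promoters in the table, 34.6% held at least 19 and 14.7% held at most 1, and the median was 11. The CLDN1 line below is cut to the 94 bases next to its start, up to an annotated exon. It therefore shows only 11 of the 28 CG of that window. The CLDN7 windows, with 9 and 25 CG, are not among the next lines, so these show only part of the range. Capitals mark CG in the next lines, each read 5′ to 3′ on the strand of the gene, ending at the base before the start: CLDN1 at chr3:190322447-190322540 (minus strand), CLDN3 at chr7:73770271-73770520 (minus strand) and the downstream start of CLDN2 at chrX:106918110-106918359 (plus strand).
CLDN1: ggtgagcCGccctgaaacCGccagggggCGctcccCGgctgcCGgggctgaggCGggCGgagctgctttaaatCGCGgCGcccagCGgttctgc
CLDN3: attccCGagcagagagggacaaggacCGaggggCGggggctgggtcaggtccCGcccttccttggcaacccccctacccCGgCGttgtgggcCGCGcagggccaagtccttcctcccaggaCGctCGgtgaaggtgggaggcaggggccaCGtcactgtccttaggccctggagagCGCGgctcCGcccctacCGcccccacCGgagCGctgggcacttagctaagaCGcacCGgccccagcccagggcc
CLDN2: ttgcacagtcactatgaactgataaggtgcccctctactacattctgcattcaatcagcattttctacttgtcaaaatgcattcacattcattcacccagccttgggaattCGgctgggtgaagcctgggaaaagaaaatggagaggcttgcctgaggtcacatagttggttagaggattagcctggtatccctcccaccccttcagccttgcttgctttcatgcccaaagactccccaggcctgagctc

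Short motifs, picked with the values known, were searched on both strands of all windows. TTTAT, the core bound by CDX factors, lay 73 to 69 bases before the upstream start of CLDN2 and in 3 of the 15 windows, the other two being TJP1 starts, against 32.7% of all promoters. The E-box CAGGTG, which reads CACCTG on the other strand, occurred 4 times before the downstream start of CLDN7 and in 4 of the 15 windows, against 17.5% of all promoters. AACCNGTT, a GRHL motif, was in no member's window and in 1.49% of all promoters. GTTAAT, a motif of HNF1 factors, was also in no member's window and in 6.23% of all promoters. A match is a run of letters and was not tested as a binding site. The 30 bases around the CDX core of CLDN2 (chrX:106900079-106900108, plus strand) and the 30 bases before the downstream start of CLDN7 (chr17:7262479-7262508, minus strand) follow, with the motifs in capitals. Both stretches lie in exons of the GENCODE annotation.
CLDN2: aacaccatccagTTTATttttctcctgatt
CLDN7: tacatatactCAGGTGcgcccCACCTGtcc

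**Figure D1:**
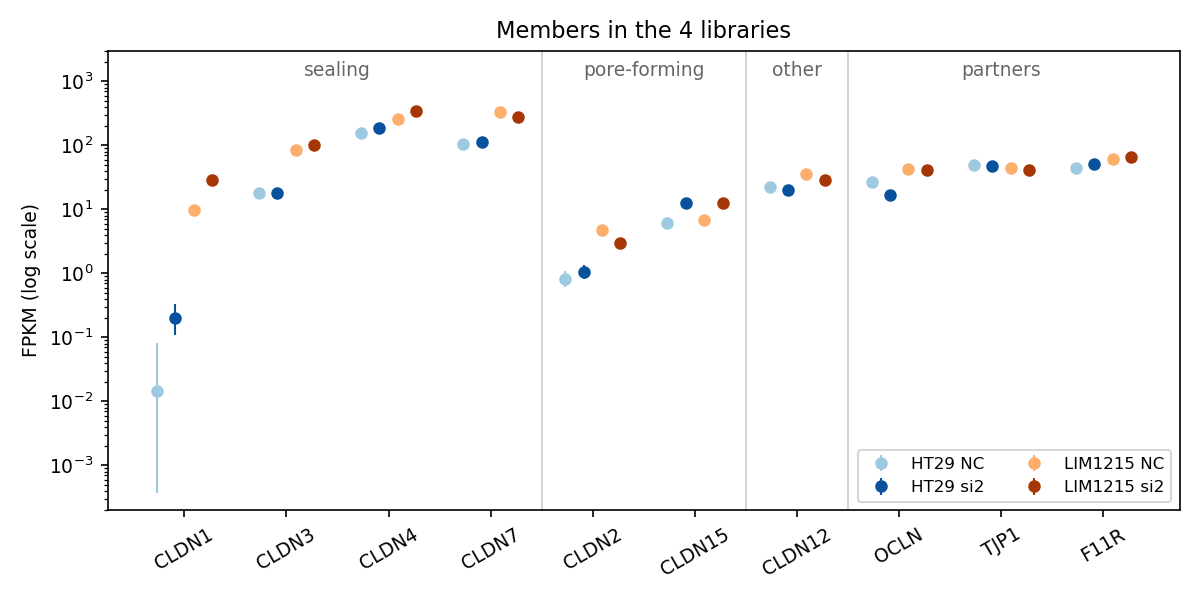
FPKM of each member (log axis) in the 4 libraries, with 95% counting intervals as bars where they exceed the point. CLDN4 and CLDN7 are the highest members in every library, and CLDN1 spans the widest range, from 0.0143 in HT29 NC to 29.2 in LIM1215 si2.

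Levels of the members within each library came next. CLDN4 and CLDN7 were the 2 most abundant members in all 4 libraries. CLDN4 led in both HT29 libraries and in LIM1215 si2, and CLDN7 led in LIM1215 NC, with an FPKM of 337 against 259 for CLDN4. The pore-forming genes stood low everywhere: CLDN15 ranged from 6.09 to 12.8 and CLDN2 from 0.812 to 4.72. In HT29, CLDN1 was the lowest member in both libraries. Some neighbours in the order had counting intervals that overlap, namely CLDN12 with CLDN3 and CLDN3 with OCLN in HT29 si2, and OCLN with TJP1 and CLDN1 with CLDN12 in LIM1215 si2.

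The control libraries were then compared between the lines, to describe how the RNA levels of junction genes differ without knockdown. Of the 10 members, 4 were at least 2-fold higher in LIM1215 NC on the scale of log2(FPKM + 1), and none was 2-fold lower. Among all 14803 genes, 12% were higher and 7.42% lower by this threshold, against 40% and none of the members. The median log2 ratio of the members was 0.69, against 0.05 for all genes. In bulk libraries such as these, fewer cells that make a gene and less of its RNA per cell cannot be told apart. The higher members were the sealing claudins CLDN1, CLDN3 and CLDN7 and the pore-forming CLDN2.

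CLDN1 (ENSG00000163347, chr3:190305707-190322446, minus strand, in GRCh38 as for all members), a claudin needed for the barrier of the skin to water loss, had an FPKM of 0.0143 in HT29 NC, 0.202 in HT29 si2, 9.78 in LIM1215 NC and 29.2 in LIM1215 si2. The HT29 libraries were both far below the LIM1215 libraries, and HT29 NC held about 1 fragment of this gene. The log2 ratio of LIM1215 NC to HT29 NC was 3.41, and the ratio of FPKM was 683, with a counting interval of 121 to 26718. That width comes from the single fragment in HT29 NC, and the pseudocount moved the log2 ratio to 1.56 at 5 and 6.43 at 0.1.

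CLDN3 (ENSG00000165215, chr7:73768997-73770270, minus strand), a sealing claudin of the gut, had an FPKM of 18.3 in HT29 NC, 18.1 in HT29 si2, 85.5 in LIM1215 NC and 101 in LIM1215 si2. Both LIM1215 libraries were above both HT29 libraries. The control ratio was 4.67-fold (4.19 to 5.21), a log2 ratio of 2.16. CLDN7 (ENSG00000181885, chr17:7259903-7263983, minus strand), found along the lateral membrane as well as in junctions, had an FPKM of 105 in HT29 NC, 112 in HT29 si2, 337 in LIM1215 NC and 281 in LIM1215 si2. It too separated the lines, by 3.21-fold (3.07 to 3.35) between the controls, a log2 ratio of 1.67. CLDN7 overlaps exons of ELP5 on the other strand, which had an FPKM of 53.5 to 65.7.

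CLDN4 (ENSG00000189143, chr7:73799542-73832690, plus strand) had an FPKM of 156 in HT29 NC, 187 in HT29 si2, 259 in LIM1215 NC and 350 in LIM1215 si2. The LIM1215 libraries were again the higher ones, but the control ratio of 1.67-fold (1.61 to 1.73) did not reach 2-fold. Of the 4 sealing claudins, CLDN4 therefore had the smallest difference between the lines.

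The pore-forming claudins did not move together. CLDN2 (ENSG00000165376, chrX:106900164-106930861, plus strand) had an FPKM of 0.812 in HT29 NC, 1.06 in HT29 si2, 4.72 in LIM1215 NC and 3.03 in LIM1215 si2. The 4 values rest on an estimated 47.6, 62.8, 236 and 169 fragments. LIM1215 was higher, by 5.82-fold (4.22 to 8.05) between the controls and a log2 ratio of 1.66, which fell short of 2-fold with a pseudocount of 5 (0.74).
CLDN15 (ENSG00000106404, chr7:101232092-101238820, minus strand) had an FPKM of 6.09 in HT29 NC, 12.4 in HT29 si2, 6.92 in LIM1215 NC and 12.8 in LIM1215 si2. Here the lines lay close, and the libraries divided by siRNA instead. The control ratio was 1.14-fold with an interval of 0.886 to 1.46, which includes equality.

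CLDN12 (ENSG00000157224, chr7:90383721-90513402, plus strand), which has been linked to calcium passage in the gut, had an FPKM of 22.2 in HT29 NC, 20.3 in HT29 si2, 35.0 in LIM1215 NC and 28.4 in LIM1215 si2. It was higher in both LIM1215 libraries, by 1.58-fold (1.48 to 1.69) in the controls. Its exons overlap those of GTPBP10 on the same strand, at an FPKM of 14.2 to 23.1, and of CDK14, so fragments may be shared. OCLN (ENSG00000197822, chr5:69492292-69558104, plus strand) had an FPKM of 26.9 in HT29 NC, 17.1 in HT29 si2, 42.5 in LIM1215 NC and 40.7 in LIM1215 si2, with a control ratio of 1.58-fold (1.51 to 1.65). Its pseudogene OCLNP1 had an FPKM of 0.723 to 1.56, and fragments of such a copy can be misplaced.

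TJP1 varied least of all members. TJP1 (ENSG00000104067, chr15:29699367-29968915, minus strand) had an FPKM of 49.1 in HT29 NC, 47.6 in HT29 si2, 45.0 in LIM1215 NC and 40.6 in LIM1215 si2, a range of 0.27 on the log2 scale, and it was the only member lower in LIM1215 NC (log2 ratio −0.12). F11R (ENSG00000158769, chr1:160995211-161021343, minus strand) had an FPKM of 44.7 in HT29 NC, 50.5 in HT29 si2, 62.2 in LIM1215 NC and 65.8 in LIM1215 si2. The control ratio was 1.39-fold (1.33 to 1.45). F11R shares exons with a readthrough gene (ENSG00000270149) that had an FPKM of 13.7 to 22.7.

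**Figure D2:**
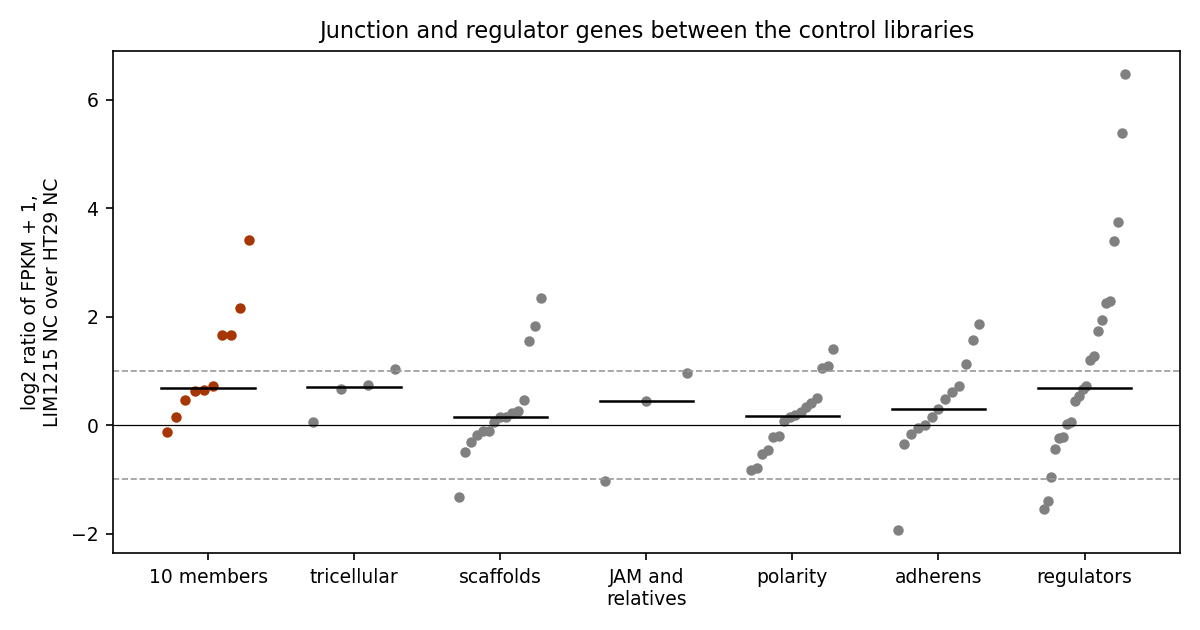
Each point is the log2 ratio of FPKM + 1 of LIM1215 NC to HT29 NC for 1 gene with a mean FPKM of at least 1. Horizontal bars are medians and dashed lines mark 2-fold. The members' median is 0.69, the scaffold list has a median of 0.15, and the regulator list has a median of 0.69.

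Other junction genes were read from lists of tricellular proteins, scaffolds, JAM relatives, polarity proteins, adherens junction proteins and the remaining claudins. Of 76 listed genes, 52 had a mean FPKM of at least 1. Between the control libraries 11 of these were higher and 3 lower in LIM1215, or 21.2% and 5.77%, beside 12% and 7.42% of all genes. Their median log2 ratio was 0.20.

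Of 16 claudins outside the members, CLDN23 alone passed the FPKM minimum, with 1.17 in HT29 NC and 4.26 in LIM1215 NC (log2 ratio 1.28). The endothelial claudin CLDN5 had an FPKM of at most 0.0654. Among scaffolds, TJP3 (ZO-3) had 24.3 in HT29 NC and 73.5 in LIM1215 NC (log2 ratio 1.56), whereas the member TJP1 had 49.1 and 45.0. SHROOM3, an actin regulator of the apical junction, had 13.3 and 71.4 (2.34). AMOTL1, an angiomotin family scaffold, was lower in LIM1215, at 9.91 and 3.37 (−1.32).

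Among polarity genes the log2 ratio was 1.40 for LLGL2, 1.09 for CRB3, which holds the apical Crumbs complex in place, and 1.05 for PARD3B. In the adherens junction, E-cadherin (CDH1) had an FPKM of 48.0 in HT29 NC and 176 in LIM1215 NC (1.86), and the ratio was 1.58 for EPCAM, which binds CLDN7, and 1.14 for plakoglobin (JUP). The tricellular protein ILDR1 had a log2 ratio of 1.03 and the immune checkpoint protein VSIR of −1.02.

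Regulators of the junction, 22 of 25 with a mean FPKM of at least 1, held 10 genes higher and 2 lower in LIM1215 NC, beside 12% higher and 7.42% lower among all genes. CDX2, an intestinal homeobox factor, had an FPKM of 8.29 in HT29 NC, 8.04 in HT29 si2, 96.8 in LIM1215 NC and 150 in LIM1215 si2. HNF4A, a nuclear receptor of gut epithelium, had 0.0948, 0.0886, 44.7 and 51.2 in the same order. These factors thus differed between the lines in the same direction as CLDN1, CLDN2, CLDN3 and CLDN7, and their part in that difference was not tested. CDX1 was listed at 0 in both HT29 libraries. KLF5 had a log2 ratio of 2.29, OVOL2 of 2.25, OVOL1 of 1.74 and GRHL2 of 1.28. The membrane proteases PRSS8 (prostasin) and ST14 (matriptase) had 1.95 and 1.19. ESRP1, an epithelial splicing factor, and TWIST1, a mesenchymal factor, were lower, at −1.54 and −1.39.

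The genes closest to CLDN1 across the 4 libraries were found by the distance between log2(FPKM + 1) values, each centred on its mean, over 12285 protein-coding genes. CAPN8 (distance 0.43), CHFR (0.45) and PRR15 (0.61) came first. CHFR was listed at 0 in both HT29 libraries and had an FPKM of 12.1 in LIM1215 NC and 24.1 in LIM1215 si2. With 4 libraries this likeness only describes them.

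**Figure D3:**
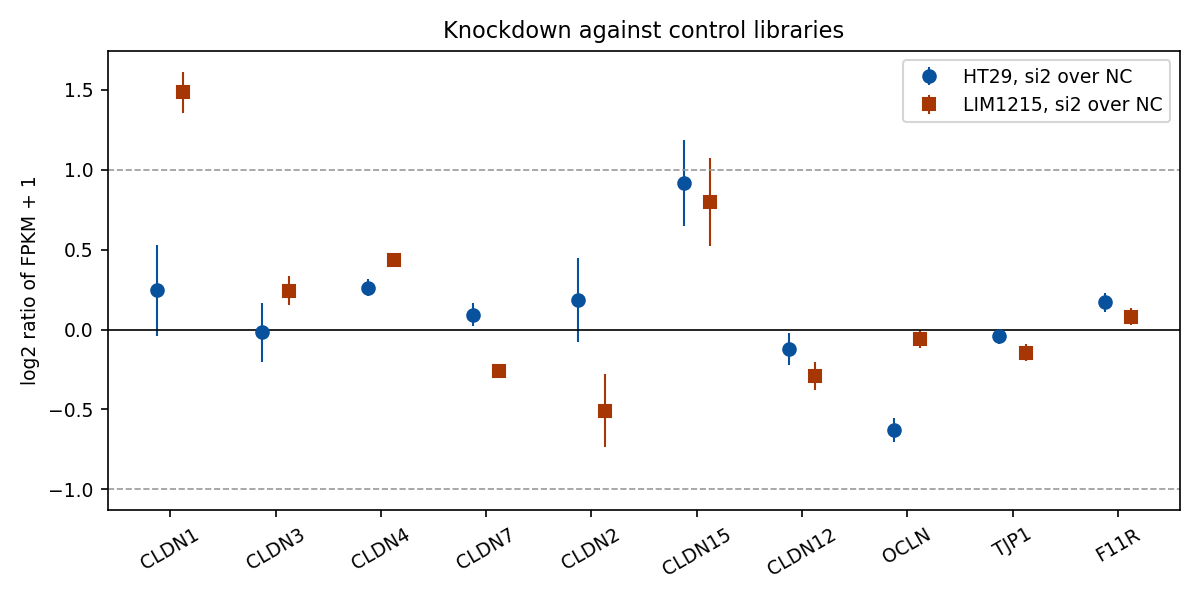
Log2 ratio of FPKM + 1, si2 to NC, for each member in HT29 (circles) and LIM1215 (squares). Bars are 95% counting intervals and dashed lines mark 2-fold. CLDN1 in LIM1215 alone lies past the line, at 1.49, and CLDN15 lies just under it in both lines, at 0.92 and 0.80.

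Knockdown was compared with control within each line, in libraries that share their NC with the comparison of the lines. In HT29 none of the 10 members was past 2-fold, beside 1.85% of all genes higher and 1.95% lower. In LIM1215, 1 member was higher and none lower, beside 1.68% and 1.78% of all genes. The median log2 ratio was 0.13 over the members in HT29 and 0.01 in LIM1215, against 0.04 and 0.02 over all genes. As a set, the members thus showed no shift past 2-fold, and the only change past that threshold was 1 gene in LIM1215. Smaller changes went both ways. By the counting interval of the FPKM ratio, 5 members were above 1 and 2 below in HT29. In LIM1215, 5 were above 1 and 5 below. The share of all genes is not given for this count, and the intervals leave out the variation between cultures.

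The lines can also be taken as pairs, which asks for a response common to both. A fit across all genes with the line as a block (limma, Benjamini-Hochberg adjustment) leaves 1 residual degree of freedom among samples, and it was added with the values known. None of the members passed an adjusted p of 0.05, beside 0.858% of all genes higher and 1.09% lower. CLDN15 came nearest, with a mean log2 ratio of 0.86 over the lines, higher in both, and an adjusted p of 0.0542 by limma. CLDN4 had 0.35 (adjusted p = 0.146, limma) and CLDN1 had 0.87 (adjusted p = 0.206, limma), each higher in both lines. At an unadjusted p of 0.05 these 3 members passed, or 30% of the members, beside 19.5% of all genes. TMEM161A had −2.59 (adjusted p = 0.00333, limma).

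The member past the threshold was CLDN1 in LIM1215, from an FPKM of 9.78 to 29.2, or 2.98-fold (2.72 to 3.28), a log2 ratio of 1.49. In HT29 the same gene went from 0.0143 to 0.202, about 1 and 14.1 fragments, and the FPKM ratio had an interval of 2.1 to 584. On the log2(FPKM + 1) scale that was 0.24, as both values are far below the pseudocount. The HT29 si2 level remained well under the LIM1215 NC level.

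CLDN15 was higher after knockdown in both lines. The HT29 values of 6.09 and 12.4 gave 2.03-fold (1.65 to 2.53), and the LIM1215 values of 6.92 and 12.8 gave 1.84-fold (1.49 to 2.29). The pseudocount kept the HT29 log2 ratio, 0.92, short of the threshold, and at a pseudocount of 0.1 it was 1.01. The difference between the responses, LIM1215 minus HT29, was −0.12, with a counting interval of −0.51 to 0.27. Both si2 libraries lay above both NC libraries for this gene, and it rests on 128 to 273 fragments per library.

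CLDN2, the other pore-forming claudin, did not follow. It was at 1.30-fold of control in HT29 (0.876 to 1.93), an interval that includes no change, and at 0.641-fold in LIM1215 (0.522 to 0.783). In LIM1215 the pore-forming genes therefore went opposite ways, CLDN15 higher and CLDN2 lower, each with an interval that excludes equality. The ratio of CLDN2 to CLDN15 was 0.682 in LIM1215 NC and 0.237 in LIM1215 si2, and 0.133 and 0.0854 in HT29.

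Among the other sealing claudins, CLDN4 was higher in both lines, at 1.2-fold (1.16 to 1.25) in HT29 and 1.35-fold (1.31 to 1.39) in LIM1215. CLDN3 was at 0.987-fold (0.859 to 1.13) in HT29 and 1.19-fold (1.11 to 1.27) in LIM1215. CLDN7 was at 1.07-fold (1.01 to 1.12) in HT29 and 0.835-fold (0.809 to 0.862) in LIM1215. CLDN4 and CLDN7 thus changed order in LIM1215, where CLDN7 led in the NC and CLDN4 in the si2 library.

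OCLN had the lowest ratio of the members in HT29, 0.634-fold (0.601 to 0.669), a log2 ratio of −0.63, from 26.9 to 17.1. In LIM1215 it was at 0.958-fold (0.920 to 0.997). The difference of the log2 ratios, LIM1215 minus HT29, was 0.57 (0.47 to 0.66), beyond counting error, though culture variation was not measured. CLDN12 was lower in both lines, at 0.915-fold (0.851 to 0.983) and 0.811-fold (0.762 to 0.863). TJP1 stood at 0.970-fold (0.939 to 1.003) and 0.902-fold (0.870 to 0.936), and F11R at 1.13-fold (1.08 to 1.18) and 1.06-fold (1.02 to 1.10), in HT29 and LIM1215.

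Of the 52 other junction genes, none passed 2-fold in either line, and their median log2 ratio was 0.05 for HT29 and 0.09 for LIM1215. MARVELD2 (tricellulin), a relative of occludin at contacts of 3 cells, is named here after its values were seen. In HT29 its FPKM was 7.51 in NC and 16.0 in si2, or 2.12-fold (1.94 to 2.33). In LIM1215 it was 13.2 in NC and 19.9 in si2, or 1.51-fold (1.39 to 1.63). On the log2(FPKM + 1) scale both stayed short of 2-fold, at 0.99 and 0.56. Among the 22 regulators, none was 2-fold higher and 1 was lower in each line, ESRP1 in HT29 and GRHL2 in LIM1215. At the shares of all genes, lists of this size hold few calls, so these counts do not set either list apart. ESRP1 had an FPKM of 63.6 in HT29 NC and 29.3 in HT29 si2, a log2 ratio of −1.09, and 21.2 in LIM1215 NC and 11.2 in LIM1215 si2 (−0.86). GRHL2, a factor that drives epithelial junction genes, had 6.80 in HT29 NC and 4.91 in HT29 si2 (−0.40), and 18 in LIM1215 NC and 6.54 in LIM1215 si2 (−1.33). The part of these regulators in the values of the members was not tested. CDX2 was at 0.971-fold (0.862 to 1.09) in HT29 and 1.55-fold (1.5 to 1.60) in LIM1215.

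**Figure D4:**
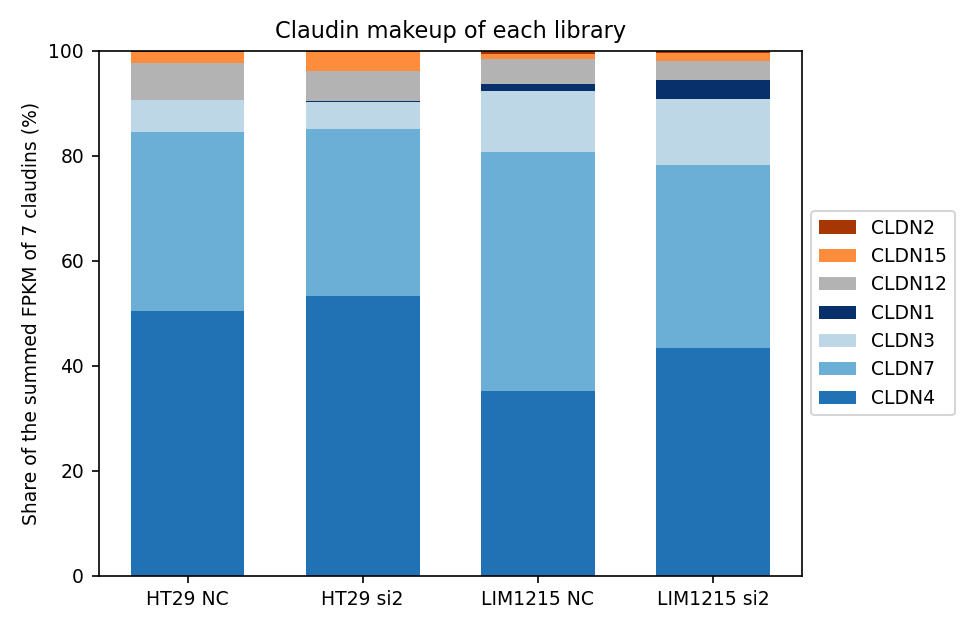
Share of each of the 7 member claudins in their summed FPKM, 1 bar per library, stacked to 100%. CLDN4 and CLDN7 fill most of each bar, and the pore-forming CLDN2 and CLDN15 at the top hold 1.58% to 3.83%.

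Pore-forming and sealing claudins were set against each other within each library, a measure that does not depend on how libraries are scaled. The 7 claudins summed to an FPKM of 308 in HT29 NC, 351 in HT29 si2, 738 in LIM1215 NC and 806 in LIM1215 si2. Pore-forming genes made up 2.24% (1.93% to 2.60%) of this sum in HT29 NC and 3.83% (3.43% to 4.26%) in HT29 si2. In LIM1215 they made up 1.58% (1.42% to 1.75%) in NC and 1.96% (1.78% to 2.15%) in si2. The intervals of these shares are approximate and likely too narrow. The share was thus higher in the si2 library of each line, and higher in HT29 than in LIM1215 under the same siRNA. Sealing claudins summed to 40.4 times the pore-forming ones in HT29 NC, 23.6 times in HT29 si2, 59.3 times in LIM1215 NC and 48.2 times in LIM1215 si2.

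Median log2 ratios give a comparison of the same groups that does not weight genes by their level. On the sealing side the median rests on the middle genes only. Between the control libraries the median was 0.91 for the pore-forming and 1.92 for the sealing genes, a difference of −1.01 with a counting interval of −1.25 to −0.77. After knockdown it was 0.55 and 0.17 in HT29, a difference of 0.38 (0.14 to 0.62). There the sealing median rests on CLDN7 (0.09) and CLDN1 (0.24), and CLDN1 on about 1 and 14.1 fragments. The pore-forming value averages CLDN15 (0.92) with CLDN2 (0.18), whose FPKM ratio has an interval that includes no change. In LIM1215 the medians were 0.14 and 0.34, a difference of −0.19 (−0.38 to −0.01). With CLDN12 counted among the sealing genes the LIM1215 difference was −0.10, smaller than the counting half-width of 0.19 found without CLDN12. No half-width was computed for the grouping with CLDN12. The direction in LIM1215 was opposite to that of the summed share, as the measures weight the genes of both groups differently. The median counts CLDN2, at 3.03 to 4.72, as much as CLDN15. On the sealing side the LIM1215 median rests on CLDN3 and CLDN4, while the sum also holds CLDN7, which went from 337 to 281 in LIM1215. With 2 pore-forming genes that went opposite ways there, neither measure describes both.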

How the data were processed

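RNA was measured in 4 libraries of HT29 and LIM1215 cells, grouped by sample title. Per the labels' protocols, total RNA was column-purified and made into libraries with a stranded mRNA kit. The authors deposited FPKM per Ensembl gene. Per the submitters' processing notes, HISAT2 2.1.0, SAMtools 1.20, Cufflinks 2.2.1 and Cuffdiff were used with GRCh38; the annotation, filters, use of strand and treatment of shared fragments are not given in the sources used here. FPKM is relative to a whole library, so abundant genes affect all others.

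Symbols came from a table of gene names, which matched 56550 identifiers, and lengths from GENCODE release 44 (GRCh38). Ratios were log2(FPKM + 1), for the 14803 genes with a mean FPKM of at least 1, called at 2-fold. Fold changes on this scale understate low genes. Fragments were estimated from the steps between low FPKM values of genes with 1 transcript of at least 500 bases: 78.9% to 80.1% of these values lay within 0.03 of a whole number, and an FPKM of 1 stood for 18.12 to 21.54 fragments per kilobase. Other values were not whole, so fragments are estimates, through the canonical transcript. Intervals (95%) are exact Clopper-Pearson for FPKM ratios, exact Poisson for levels, and normal approximations of counting error for differences of log2 ratios. For shares, the Poisson interval of the pooled CLDN2 and CLDN15 fragments was scaled. It leaves out the error of the sum, so it is approximate and likely too narrow. limma 3.58.1 (R 4.3.3) was run on log2(FPKM + 1) with the line as a block, an analysis added after the data were seen. The scripts were tested on simulated data. Python 3.11.15 and scipy 1.17.1 were used.

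Members, gene lists, motifs and tests were chosen with earlier results of these data known. Named genes are the members, TMEM161A, listed junction genes and regulators past 2-fold in any comparison, claudins with a mean FPKM of at least 1, and the 3 protein-coding genes most like the member with the widest range; some listed genes count in their lists but are not reported by name here. Alternatives were pseudocounts of 0.1 and 5, no filter or a mean FPKM of at least 5, 3 other scalings, a 1.5-fold threshold, CLDN12 added to the sealing group, all claudins in the sum, and a protein-coding background.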

Additional observations from a re-analysis of the deposited data

Results flagged for a closer look

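The log2 ratio of si2 to NC had opposite signs in HT29 and LIM1215 for the members CLDN2, CLDN3 and CLDN7. LIM1215 minus HT29, the difference was −0.69 for CLDN2 (0.18 in HT29 and −0.51 in LIM1215), 0.26 for CLDN3 (−0.02 and 0.24) and −0.35 for CLDN7 (0.09 and −0.26). Counting intervals of the differences were −1.04 to −0.34, 0.05 to 0.47 and −0.44 to −0.27. The pore-forming minus sealing median also changed sign, from 0.38 in HT29 to −0.19 in LIM1215, a difference of −0.57. With 1 library per group, these differences were not tested.

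Other named genes with opposite directions are given by the same difference, also untested. CDX2 had 0.67, KLF5 −0.64, AMOTL1 −0.61, CLDN23 −0.38, VSIR 0.35, CDH1 0.24, EPCAM 0.21 and OVOL1 0.11. HNF4A had 0.20, with both HT29 values near 0. Counting intervals of the FPKM ratio held 1 in both lines for OVOL1, and in HT29 for CDX2, CLDN23 and HNF4A, so those directions cannot be told from no change by counting. The same holds for the members CLDN2 and CLDN3 in HT29.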

How the results depend on the processing

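The log2 ratios of the members were recomputed with 2 other pseudocounts and 3 other scalings. Of 150 values, none changed sign, and 28 moved by more than counting error, 19 of them in the comparison of the lines. A common sum (TPM) moved the median of all genes in that comparison from 0.05 to −0.11. With a threshold of 1.5-fold, 7 members were higher in LIM1215 NC, beside 38% of all genes past it in either direction. In HT29, 2 members were higher after knockdown at a pseudocount of 0.1, beside 7.62% of all genes in either direction. At 1.5-fold 1 was higher and 1 lower in HT29, near the 14.8% of all genes, and 2 were higher in LIM1215, near the 12.8% of all genes. The pore-forming minus sealing median between the lines was −0.66 at a pseudocount of 0.1 and −0.76 with CLDN12 added to the sealing group. Among protein-coding genes alone, 2.22% in HT29 were past 2-fold after knockdown, beside 3.8% of all genes, and 1.64% in LIM1215, beside 3.46%. A mean FPKM of at least 5 removed CLDN2. No replicate block was possible because each group had 1 library. With the lines as pairs (limma, line as block), 0 members passed an adjusted p of 0.05 and 3 an unadjusted one. For CLDN1 in HT29 NC, about 1 fragment limits any ratio.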
